A study of Mus musculus with 8 samples.

Results

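The antiproteases of the lung, the proteins that hold proteases in check, were followed in the lungs of mice that lack every nitric oxide synthase. The set was chosen by gene symbol alone: serpins other than Serpinh1, the Wfdc, Spink and Itih families, TIMPs, cystatins, and Cstb, Slpi, Reck and A2m. This took in 52 of the 15728 genes in the deposited table, and 40 of the 52 had a mean of at least 1 count per 1000000 reads (CPM) over the 8 libraries and entered the test. Wfdc6a, with a mean of 1.04 CPM, was the lowest of the 40, and Serpina3m, with 0.958 CPM, was the highest of the 12 left out.

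Lungs were compared between 4 libraries labelled as from triply n/i/eNOSs-/- mice, in which the genes for the neuronal, inducible and endothelial synthases are all inactivated, and 4 labelled as from wild type mice. All 8 are labelled C57BL/6J, 4 weeks of age and unexposed, and the series is about the place of nitric oxide synthases in pulmonary emphysema. The labels give neither sex nor litter, and do not say that each library is from a separate mouse. Expression was read with CAGE, a method that captures RNA by its cap and reads the first bases of each transcript. A read stands for the start of a transcript whatever its length, so CPM can be set side by side between genes. Libraries held 13014134 to 15096188 reads in knockouts, against 15598154 to 18593913 reads in wild type. Nos3, the endothelial synthase, had 5.56, 8.32, 8.83 and 6.76 CPM in knockout lungs, against 18.2, 22.8, 19.8 and 18.6 CPM in wild type lungs (log2 difference -1.38, limma adjusted p = 4.94e-05), while Nos1 and Nos2 were not analysed here. The tissue was lung by its markers, since all 10 alveolar type 2 genes and all 10 club and goblet cell genes looked up were listed at 1 CPM or more on average. In whole lung, fewer cells of a type and less RNA per cell cannot be told apart.

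Protease inhibitors work by a few mechanisms. Serpins are suicide substrates: the protease cleaves an exposed loop and is trapped in a covalent complex. Clade A serpins are mostly secreted, whereas clade B serpins mostly stay in the cytoplasm and guard a cell against its own granule proteases. TIMPs plug the zinc site of matrix metalloproteases and ADAMs, cystatins block cysteine cathepsins, and the WFDC protein Slpi and many SPINK proteins fit the active site of serine proteases like a substrate that is not released. In the lung, loss of serpin control over neutrophil elastase is the classic inherited cause of human emphysema, which is why the balance between proteases and antiproteases is followed in this organ.

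The tested serpins of clades A and B, apart from Serpinb10-ps, were higher in the knockout lungs, and Itih4 was lower. Of the abundant secreted inhibitors, Cst3 differed by 0.10 on the log2 scale and did not pass the test. Wfdc2 was called lower, at -0.24. Of the 40 genes tested, 14 (35.0%) were higher in knockouts, 5 (12.5%) were lower and 21 did not pass the test, at a limma adjusted p under 0.05 over all genes. Over all 14036 genes tested, 16.7% were called higher and 14.2% lower. Of the called genes, Serpina3f, Serpina3h and Wfdc12 averaged 1 CPM or more only in the genotype where they were higher and entered the test through it. In 14 of the 40 genes every knockout library lay above every wild type library, a pattern found in 16.9% of all genes, and in 6 every knockout library lay below, found in 14.3% of all genes. The median log2 difference was 0.10 over the 40 genes and 0.01 over all genes. By size, the median absolute log2 difference was 0.26, against 0.19 over all genes. On the log2(CPM + 0.5) scale, differences ran from -1.27 for Itih4 to 1.11 for Serpina3g, the only 2 of the 40 past 1 in size. The 10 called serpins of clades A and B carried most of the higher calls: among the other 29 genes tested, a split made after values were seen, 4 (13.8%) were higher and 5 (17.2%) lower. All differences below are log2 of CPM + 0.5, knockout minus wild type, with their standard error, and this scale understates the change of genes near 1 CPM. Means are given ± SD over the 4 libraries of a genotype.

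**Figure D1:**
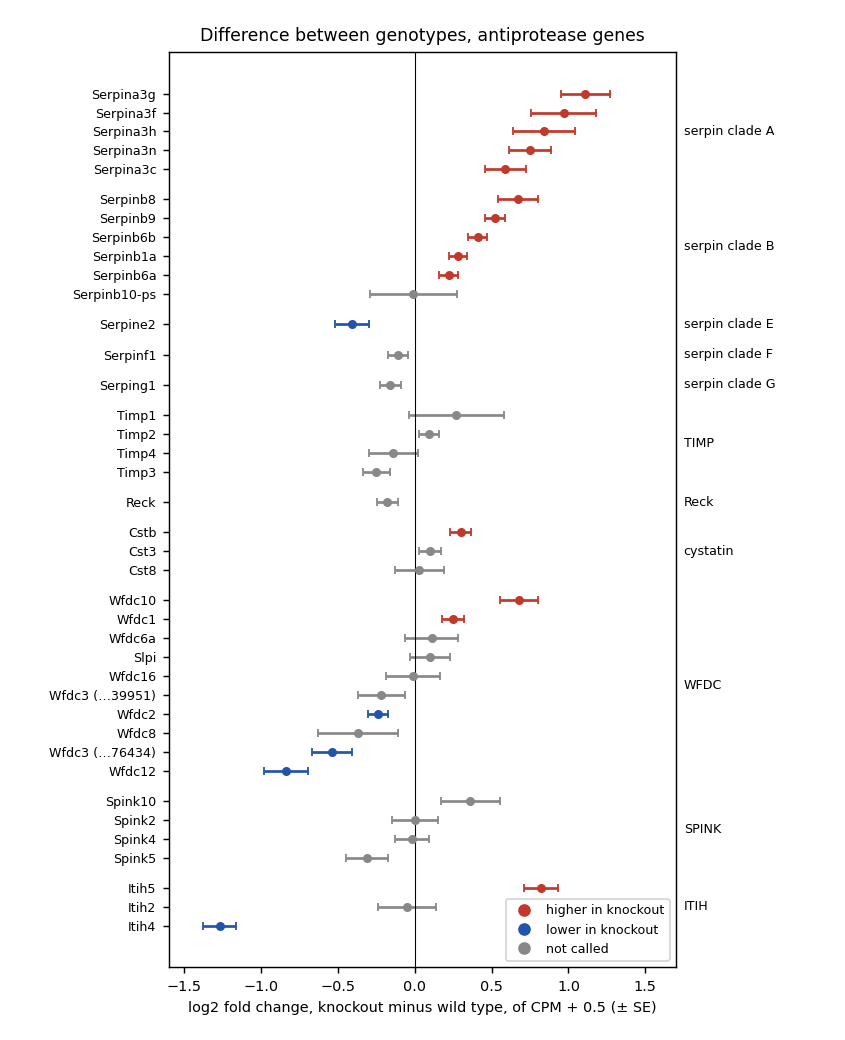
Log2 difference (knockout minus wild type, of CPM + 0.5, ± SE) for 39 of the 40 tested genes, in blocks by family; red marks genes called higher, blue lower and grey those not called. All 5 clade A and 5 of 6 clade B serpins lie on the higher side, and Itih4 at -1.27 lies farthest on the lower side.

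The largest rise and the largest fall were in the Serpina3 genes and in Itih4, and the starts of some of these genes are shown. Wfdc12 and Itih5 on chromosome 2, at -0.84 and 0.82, differed more than Serpina3n and Serpina3c, but their starts are not shown. Serpina3c, Serpina3f, Serpina3g, Serpina3h and Serpina3n, all called higher, lie in one cluster on chromosome 12, while Itih4, the lowest, lies on chromosome 14 beside Itih3 and Itih1. The RefSeq windows on GRCm38.p6 run from 250 bases before to 50 after the annotated start and are printed 5′ to 3′ on the strand of the gene. They are chr12:104235897-104236196 (plus) for Serpina3g, chr12:104214294-104214593 (plus) for Serpina3f, chr12:104406458-104406757 (plus) for Serpina3n, chr12:104153823-104154122 (minus) for Serpina3c and chr14:30886226-30886525 (plus) for Itih4. Capitals mark the letters TTCNNNGAA, the spacing that STAT factors are known to bind.
Serpina3g: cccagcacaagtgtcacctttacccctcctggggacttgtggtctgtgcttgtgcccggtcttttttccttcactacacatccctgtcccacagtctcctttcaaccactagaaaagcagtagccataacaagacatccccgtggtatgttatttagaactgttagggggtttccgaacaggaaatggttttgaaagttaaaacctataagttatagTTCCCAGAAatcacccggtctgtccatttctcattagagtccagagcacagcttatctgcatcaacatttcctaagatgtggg
Serpina3f: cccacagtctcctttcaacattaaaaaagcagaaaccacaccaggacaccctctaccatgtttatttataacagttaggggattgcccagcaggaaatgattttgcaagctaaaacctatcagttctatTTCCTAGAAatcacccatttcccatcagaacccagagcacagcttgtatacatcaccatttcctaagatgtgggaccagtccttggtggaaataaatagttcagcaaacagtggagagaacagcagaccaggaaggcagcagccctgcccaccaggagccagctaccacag
Serpina3n: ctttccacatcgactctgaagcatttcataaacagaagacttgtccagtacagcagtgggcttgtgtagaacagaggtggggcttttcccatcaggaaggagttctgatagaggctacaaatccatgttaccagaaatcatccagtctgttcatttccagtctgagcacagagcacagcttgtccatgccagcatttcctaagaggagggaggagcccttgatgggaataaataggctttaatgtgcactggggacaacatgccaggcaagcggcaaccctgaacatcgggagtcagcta
Serpina3c: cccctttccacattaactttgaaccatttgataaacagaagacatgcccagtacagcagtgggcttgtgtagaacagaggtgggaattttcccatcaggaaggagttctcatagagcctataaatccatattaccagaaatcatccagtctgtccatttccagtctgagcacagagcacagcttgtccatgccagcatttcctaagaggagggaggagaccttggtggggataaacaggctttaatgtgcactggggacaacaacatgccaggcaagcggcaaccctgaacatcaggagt
Itih4: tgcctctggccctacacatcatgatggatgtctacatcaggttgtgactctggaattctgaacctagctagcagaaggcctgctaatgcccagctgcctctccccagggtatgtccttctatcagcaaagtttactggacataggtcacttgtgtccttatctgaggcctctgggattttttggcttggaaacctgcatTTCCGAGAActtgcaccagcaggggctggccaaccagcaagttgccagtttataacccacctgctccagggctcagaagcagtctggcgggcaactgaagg
The match begins at position -33 of Serpina3g, -121 of Serpina3f and -51 of Itih4, counted from the annotated start, so it stands in front of genes that differed in opposite directions. The Serpina3n and Serpina3c windows, which hold no match, are identical at 275 of 300 aligned bases (91.7%), whereas Serpina3n and Serpina3f share 69.0%.
Searched on both strands, TTCNNNGAA was in 6 of the 44 windows found for 37 of the genes (13.6%), those of Itih4, Serpina3g, Serpina3i and Serpinb6a and 2 overlapping windows of Serpina3f that hold the same site, and in 8.33% of all 32544 RefSeq promoters. The AP-1-like letters TGANTCA, with any base in the middle, were in 5 of the 44 (11.4%), against 7.79% of all. The middle base was C or G in the windows of Serpinb8, Itih2 and Serpina1a, A in that of Serpinb10 and T in that of Cst7. The E-box CACGTG was in 1 window, that of Slpi, against 7.17% of all. These are matches of letters only.

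In clade A, all 5 genes tested were higher in knockouts. Serpina3f and Serpina3h averaged under 1 CPM in wild type and entered the test through their knockout values, which leaves 3 of 3 without them. All 5 belong to the Serpina3 cluster, the mouse expansion of the single human antichymotrypsin gene. The 7 Serpina3 genes listed summed to 66.9, 63.8, 92.7 and 83.2 CPM in knockouts, against 42.9, 39.6, 43.5 and 43.9 CPM in wild type, 1.8 times the wild type mean. Serpina3n, an acute-phase gene whose product inhibits granzyme B, made up most of that sum, at 47.4, 37.9, 64.8 and 56.8 CPM in knockouts and 29.96, 29.1, 29.6 and 31.3 CPM in wild type. The difference was 0.75 ± 0.14 (limma adjusted p = 0.00228). The wild type libraries agreed within a coefficient of variation of 3.15%, whereas the knockouts spread over 22.5% and still did not overlap them.

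Serpina3g, a mouse inhibitor of lysosomal cysteine proteases that is induced by interferon, had the largest rise of the set on the log2(CPM + 0.5) scale. By ratio of means Serpina3f, its scarcer neighbour, was higher, at 2.61. The level of Serpina3g was 9.54, 13.6, 15.2 and 12.1 CPM in knockouts, against 5.50, 4.73, 7.22 and 4.74 CPM in wild type, a ratio of means of 2.27 and a difference of 1.11 ± 0.16 (limma adjusted p = 0.000642). The lowest knockout library, 9.54 CPM, lay above the highest wild type library, 7.22 CPM. Serpina3f had 1.39, 2.84, 2.97 and 1.69 CPM in knockouts and 0.72, 0.91, 0.87 and 0.90 CPM in wild type (0.97 ± 0.21, limma adjusted p = 0.0064). Knockouts 2 and 3 were high and knockouts 1 and 4 closer to wild type, and the knockouts came in the same order as in Serpina3g.

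Serpina3c, described in mouse as a kallikrein-binding serpin, had 6.49, 6.22, 6.21 and 8.38 CPM in knockouts, against 4.84, 3.44, 4.56 and 4.68 CPM in wild type. The difference was 0.59 ± 0.14 (limma adjusted p = 0.00843), and knockout 4 stood above the other 3 knockouts. Serpina3h, annotated in GENCODE M21 as a transcribed pseudogene, had 1.39, 2.43, 2.28 and 2.23 CPM in knockouts, against 0.96, 0.65, 0.81 and 1.35 CPM in wild type (0.84 ± 0.20, limma adjusted p = 0.00956). Here too the groups did not overlap.

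Reads of these neighbours could in part be shared. Over the first 200 bases of their transcripts the closest pair of listed clade A genes, Serpina3h and Serpina3i, matched at 94.1% over 186 bases, and Serpina3c and Serpina3n at 88.8% over 161 bases. No pair of Serpina3 genes reached 97% over a whole alignment of at least 75 bases, the mark used here to call a copy. Shorter stretches within an alignment were not looked at, so sharing of single reads was not checked. Serpina3i itself had 2 reads over all knockouts and 4 over all wild type libraries. Serpina3m, just under the limit for testing, summed to 66 reads in knockouts and 50 in wild type, and its groups overlapped.

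The Serpina3 genes are abundant in liver, so liver genes were looked up. Of the 6 genes on the liver list only Alb was in the table. It had 0.13, 0, 0.21 and 0.23 CPM in knockouts, against 0.36, 1.13, 0.81 and 1.15 CPM in wild type. The 9 monocyte and interstitial macrophage genes summed to 344 to 383 CPM in knockouts, against 303 to 326 CPM in wild type. Of these, 2 (22.2%) were called higher, none lower and 7 not called. Over all genes, 16.7% were called higher and 14.2% lower. The genes of alveolar macrophages summed to 628 to 816 CPM in knockouts, against 692 to 834 CPM in wild type, with 2 of 8 (25.0%) called higher and none lower. Chi3l3, at 131 CPM in knockout 2, weighed on that sum. It averaged 258 CPM in knockouts and 326 CPM in wild type and was not called. The part of liver RNA and of these cells in the serpin result was not tested.

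**Figure D2:**
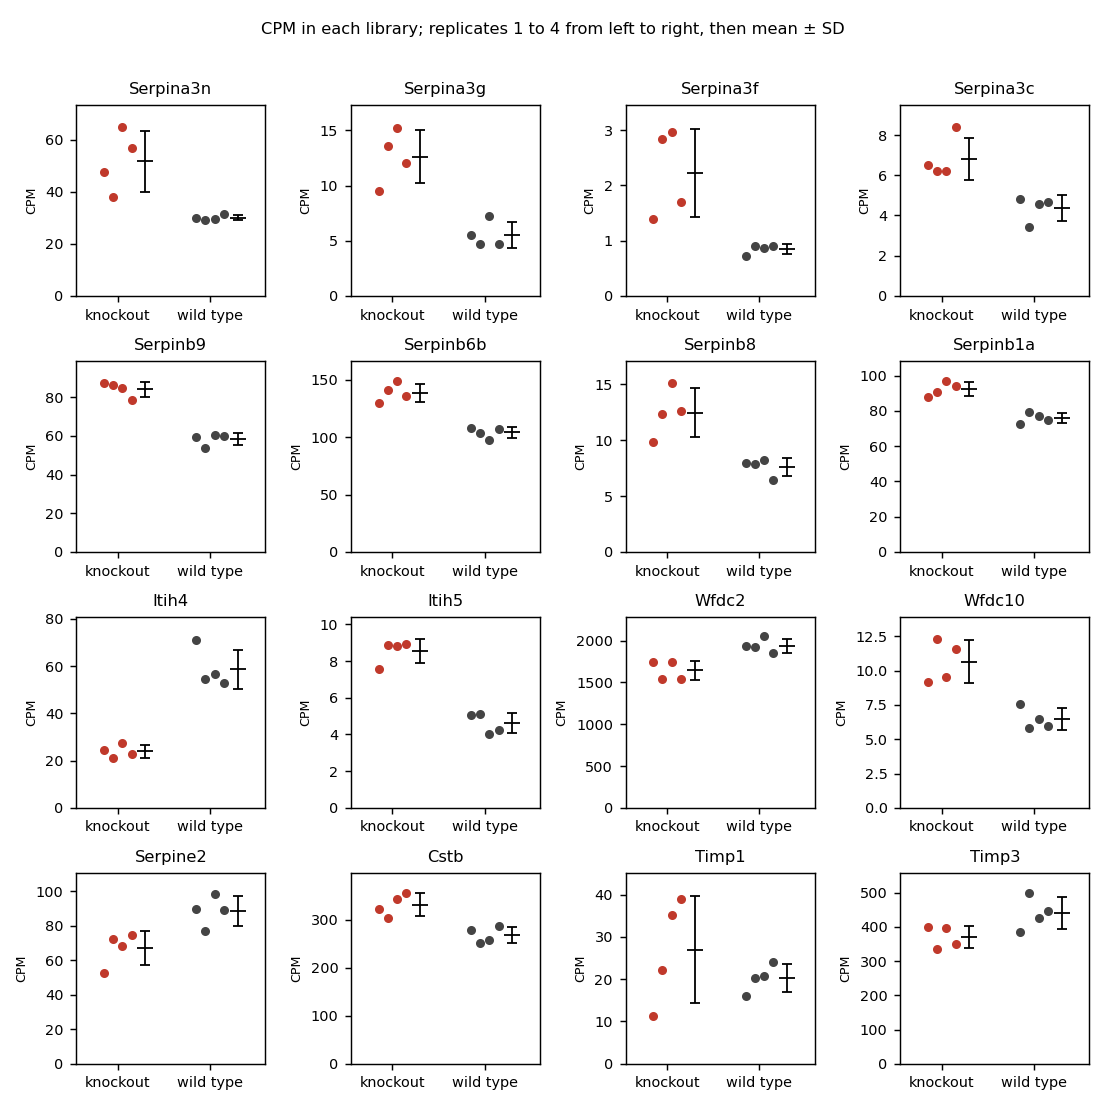
CPM in each library for 16 antiprotease genes, knockout (red, left) and wild type (dark grey, right), with the mean ± SD of 4 libraries beside the points. Serpina3n runs from 37.9 to 64.8 in knockouts and from 29.1 to 31.3 in wild type, and Itih4 from 20.96 to 27.6 in knockouts and from 52.95 to 70.99 in wild type, while Timp1 runs from 11.3 to 38.96 in knockouts.

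Clade B, the intracellular serpins, was higher in 5 of its 6 members, with a median difference of 0.34. Apart from Serpinb8, the differences called were smaller than any in clade A, and the knockout libraries of those genes lay closer together. Serpinb9, the cytosolic granzyme B inhibitor that protects cytotoxic lymphocytes and other cells from their own or neighbouring granules, had 87.2, 86.2, 84.8 and 78.6 CPM in knockouts, against 59.5, 53.6, 60.4 and 60.2 CPM in wild type. The difference was 0.52 ± 0.06, and its limma adjusted p of 0.00022 was the smallest among the genes called higher. The lowest knockout, 78.6 CPM, lay well above the highest wild type library, 60.4 CPM.

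Serpinb6b, a mouse serpin that inhibits granzyme A, was the most abundant of the clade, at 129.7, 141, 149 and 136 CPM in knockouts and 108, 104, 97.9 and 107 CPM in wild type (0.41 ± 0.06, limma adjusted p = 0.000813). Serpinb1a, an inhibitor of neutrophil elastase, cathepsin G and proteinase 3, had 87.9, 90.8, 97.2 and 94.1 CPM in knockouts, against 72.7, 79.4, 77.3 and 75.1 CPM in wild type (0.28 ± 0.06, limma adjusted p = 0.00509). In both, no knockout overlapped a wild type library. Serpinb6a, whose human counterpart inhibits cathepsin G, had 118, 114, 110.3 and 104 CPM in knockouts, against 96.3, 97.9, 97.98 and 89.8 CPM in wild type (0.22 ± 0.06, limma adjusted p = 0.0175). Serpinb1a, Serpinb6b, Serpinb9 and Serpinb6a lie close together on chromosome 13, and their sum was 427 ± 12.3 CPM in knockouts and 334 ± 2.05 CPM in wild type (SD, n = 4 each), 1.28 times the wild type mean. The first 200 bases of Serpinb6b and Serpinb6a transcripts matched at 89.1% over 101 bases.

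Serpinb8, known in human cells as a furin inhibitor, sits apart on chromosome 1 and had 9.80, 12.4, 15.1 and 12.6 CPM in knockouts, against 7.95, 7.85, 8.20 and 6.41 CPM in wild type (0.67 ± 0.13, limma adjusted p = 0.00343). Its neighbour Serpinb10-ps was the exception of the clade. It had 6.43, 4.06, 1.93 and 2.15 CPM in knockouts, against 3.71, 3.23, 3.23 and 3.08 CPM in wild type, a difference of -0.01 ± 0.28 (limma adjusted p = 0.981). Knockout 1 was above and knockouts 3 and 4 below all wild type libraries, a coefficient of variation of 57.4% in knockouts and 8.28% in wild type. GENCODE M21 lists it as a polymorphic pseudogene under the name Serpinb10.

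Serpinb6a values are uncertain in one respect. GENCODE M21 places 1110046J04Rik, Nqo2 and Ripk1 on the opposite strand over it, the first of them complementary over 139 bases at 100%, and the sources used here do not say whether strand was used in counting. 1110046J04Rik averaged 12.4 ± 1.45 CPM in knockouts and 9.79 ± 1.79 CPM in wild type, Nqo2 13.5 ± 2.35 CPM in knockouts and 15.4 ± 1.12 CPM in wild type, and Ripk1 58.5 ± 17.9 CPM in knockouts and 54.0 ± 10.8 CPM in wild type (SD, n = 4 each).

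The granzymes these serpins meet did not rise. Gzmb, the target of Serpinb9, was lower, at 2.85, 1.62, 2.28 and 1.54 CPM in knockouts and 2.81, 2.90, 3.12 and 3.72 CPM in wild type (-0.52 ± 0.18, limma adjusted p = 0.0443), although the groups overlapped by the value of knockout 1. Gzma had 40.01, 29.8, 28.2 and 21.1 CPM in knockouts, against 35.5, 38.5, 33.03 and 37.8 CPM in wild type, and was not called (limma adjusted p = 0.143). The neutrophil serine protease gene Prtn3 averaged 0.677 CPM in knockouts and 0.968 CPM in wild type and was not tested. The chymase gene Cma1, the only mast cell protease tested, was higher, at 1.71 ± 0.428 CPM in knockouts and 0.98 ± 0.116 CPM in wild type (limma adjusted p = 0.0389). Cma1 averaged under 1 CPM in wild type and entered the test through its knockout values, and its groups overlapped.

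Cells that carry clade B serpins showed no common rise. The 9 T and NK lymphocyte genes summed to 42.9 to 53.9 CPM in knockouts, against 56.6 to 65.2 CPM in wild type. Of these, 3 (33.3%) were called lower and none higher, against 14.2% and 16.7% of all genes. Neutrophil genes summed to 217 to 432 CPM in knockouts, against 253 to 383 CPM in wild type, and none of 7 was called. Monocyte and interstitial macrophage genes had the higher sum given above, with 7 of the 9 not called. The part of these cells in the clade B result was not tested.

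The extracellular serpins of clades E, F and G did not share the rise. Serpine2, or protease nexin 1, which inhibits thrombin, plasmin and urokinase, fell. It had 52.7, 72.6, 68.04 and 74.8 CPM in knockouts, against 89.7, 77.2, 98.3 and 88.98 CPM in wild type (-0.41 ± 0.11, limma adjusted p = 0.0179). Knockout 1 was the lowest library, and the highest knockout lay only slightly under the lowest wild type library. Without wild type 3 the difference was -0.35 and no longer passed the test (limma adjusted p = 0.0552, in a range of 0.00294 to 0.0552 over the alternatives).

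Serpine2 acts on the plasminogen system. Of 8 tested genes of plasminogen activation, 4 were higher and none lower, against 16.7% and 14.2% of all genes. S100a10 and Anxa2, which together form a plasminogen receptor, averaged 414 ± 34.8 and 645 ± 60.4 CPM in knockouts, against 286 ± 16.1 and 526 ± 21.9 CPM in wild type (limma adjusted p = 0.000377 and 0.01). Plau, the urokinase gene, had 8.08, 6.29, 8.90 and 6.99 CPM in knockouts, against 5.14, 5.92, 5.89 and 5.96 CPM in wild type (limma adjusted p = 0.0383), and Plat, the tissue activator, was not called at 15.2 ± 1.65 CPM in knockouts and 17.0 ± 0.941 CPM in wild type (limma adjusted p = 0.199).

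Serpinf1, pigment epithelium-derived factor, a serpin without inhibitory activity, had 53.9, 50.9, 56.3 and 54.9 CPM in knockouts, against 59.6, 54.2, 56.5 and 63.2 CPM in wild type, and was not called (limma adjusted p = 0.239). Serping1, the C1 inhibitor of complement and kallikrein, was the most abundant serpin. It had 257, 245, 248 and 226 CPM in knockouts, against 259, 291, 287 and 251 CPM in wild type (-0.16 ± 0.07, limma adjusted p = 0.0995). The knockouts lay within or below the wild type range, and the call depended on scaling: with TMM factors the limma adjusted p was 0.0398, in a range of 0.0193 to 0.234 over the alternatives.

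The metalloprotease inhibitors gave no call, and 3 of the 5 genes came near or depended on 1 library. Timp3, which binds to the matrix and inhibits ADAM17 as well as matrix metalloproteases, had 398, 334, 397 and 349 CPM in knockouts, against 385, 498, 427 and 447 CPM in wild type (-0.25 ± 0.09, limma adjusted p = 0.0509). Wild type 1 overlapped the knockouts, and Timp3 was called lower in 7 of the 19 alternatives, TMM factors (limma adjusted p = 0.0428) among them, in a range of 0.0142 to 0.136. Reck, a membrane-anchored inhibitor of metalloproteases, had 16.4, 16.8, 16.4 and 17.3 CPM in knockouts, against 19.1, 18.5, 19.6 and 18.9 CPM in wild type. Its groups did not overlap, yet the difference of -0.18 ± 0.07 did not pass the test (limma adjusted p = 0.0635, from 0.0452 to 0.137 over the alternatives).

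Timp1, the inducible inhibitor secreted in inflammation and fibrosis, varied widely among knockouts. It had 11.3, 22.3, 35.3 and 38.96 CPM in knockouts, against 16.1, 20.4, 20.7 and 23.98 CPM in wild type, a coefficient of variation of 47.0% in knockouts and 16.0% in wild type. Knockout 1 lay below every wild type library and knockouts 3 and 4 above them, and the difference of 0.27 ± 0.31 was not called (limma adjusted p = 0.543). Without knockout 1 it was 0.63 and called (limma adjusted p = 0.0263, in a range of 0.0263 to 0.926 over the alternatives). Timp2, the most abundant of the 4 and a cofactor in the activation of pro-MMP2, had 492, 519, 455 and 442 CPM in knockouts, against 415, 465, 449 and 458 CPM in wild type (0.09 ± 0.07, limma adjusted p = 0.31). Timp4 averaged 3.26 ± 0.656 CPM in knockouts and 3.66 ± 0.654 CPM in wild type and was not called either. Timp1, Timp3 and Timp4 each lie within an intron of a synapsin gene on the opposite strand in mouse, and Syn1, Syn3 and Syn2 averaged 0.125, 0.703 and 6.05 CPM in knockouts, against 0.19, 0.568 and 5.2 CPM in wild type. Syn2 was therefore above its neighbour Timp4.

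Of their targets, Adam17 and Mmp14 were higher. Adam17, which sheds TNF and EGF receptor ligands and is inhibited by Timp3, had 64.2, 83.7, 82.5 and 79.7 CPM in knockouts, against 46.7, 45.4, 46.7 and 49.2 CPM in wild type (0.71 ± 0.09, limma adjusted p = 0.000193). No libraries overlapped. Of 19 ADAM and ADAMTS genes tested, 7 (36.8%) were higher and 2 (10.5%) lower, against 16.7% and 14.2% of all genes. Mmp14, the membrane-bound metalloprotease that Reck and Timp2 act on, had 65.2, 83.1, 82.4 and 76.5 CPM in knockouts, against 52.3, 52.9, 55.3 and 51.8 CPM in wild type (0.52 ± 0.08, limma adjusted p = 0.000893). Among 12 matrix metalloproteases tested 2 (16.7%) were higher and 1 (8.33%) lower, near the shares of all genes. Mmp12, the macrophage elastase, averaged 5.17 ± 0.707 CPM in knockouts and 4.42 ± 0.496 CPM in wild type, and Mmp9 3.51 ± 0.964 CPM in knockouts and 4.87 ± 0.909 CPM in wild type (SD, n = 4 each), neither called at limma adjusted p of 0.233 and 0.107. Fibroblast genes, which mark cells that express Timp2, Timp3 and Mmp14, summed to 2929 to 3340 CPM in knockouts, against 3527 to 3839 CPM in wild type. Of the 9, 1 (11.1%) was called higher, 2 (22.2%) lower and 6 not called, against 16.7% higher and 14.2% lower of all genes. The lower sum came from Inmt, which averaged 857 CPM in knockouts and 1596 CPM in wild type, so it does not describe the list as a whole. The part of fibroblasts in these values was not tested.

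Among cystatins, the intracellular inhibitor rose and the secreted one did not pass the test. Cstb, cystatin B, which inhibits cathepsins that leak into the cytoplasm, had 322, 304, 344 and 356 CPM in knockouts, against 279, 251, 257 and 287 CPM in wild type (0.30 ± 0.07, limma adjusted p = 0.00721). The groups did not overlap. Cst3, cystatin C, was the most abundant of the 52 genes and held 35.0% of their summed level. It had 2212, 2537, 2292 and 2213 CPM in knockouts, against 2100, 2388, 2135 and 1997 CPM in wild type (0.10 ± 0.07, limma adjusted p = 0.304), with overlapping groups. Cst8 averaged 18.4 ± 4.44 CPM in knockouts and 17.8 ± 2.44 CPM in wild type.

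Of 14 genes tested from a list of cathepsins and legumain, 2 (14.3%) were higher and 3 (21.4%) lower, against 16.7% and 14.2% of all genes. The list also holds Ctsd, Ctse and Ctsa, which are not cysteine proteases and were not called. All called genes were cysteine cathepsins, so the shares among those alone are larger. Ctsh, an aminopeptidase that processes surfactant protein B and C in type 2 cells, had 417, 490.0, 609.9 and 597 CPM in knockouts, against 364, 376, 339.7 and 377 CPM in wild type (0.52 ± 0.11, limma adjusted p = 0.00485). Ctsb, a main target of Cstb and Serpina3g, had 229.7, 213, 244 and 243 CPM in knockouts, against 283, 273, 282 and 276 CPM in wild type (-0.26 ± 0.06, limma adjusted p = 0.00683). Neither gene overlapped between genotypes, and Ctsb moved against Cstb while Ctsh moved with it. Ctsl and Ctss averaged 199.1 and 121.2 CPM in knockouts, against 198.8 and 116.3 CPM in wild type. Neither was called (limma adjusted p = 0.99 and 0.501). Of the stefins, mouse neutrophil relatives of Cstb that the symbol rule does not take in, Stfa1 and Stfa2l1 were called lower, Stfa1 entering the test through its wild type values. Stfa1 averaged 0.47 ± 0.312 CPM in knockouts and 1.66 ± 0.287 CPM in wild type, and Stfa2l1 1.34 ± 0.399 CPM in knockouts and 3.93 ± 1.48 CPM in wild type (SD, n = 4 each, limma adjusted p = 0.00289 and 0.00275).

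**Figure D3:**
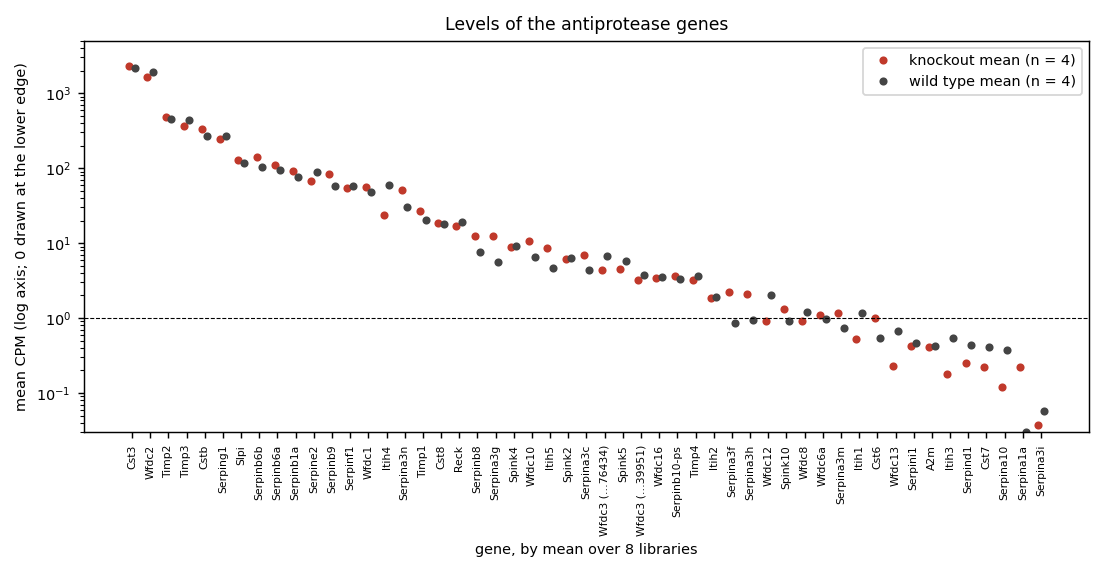
Mean CPM of 51 of the 52 genes on a log axis, ordered by the mean over 8 libraries, knockout (red) and wild type (dark grey), n = 4 each; the dashed line is the limit of 1 CPM for the test. Cst3 and Wfdc2 stand above 1000 CPM in both genotypes, and 12 genes lie under the limit.

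The summed level of antiprotease RNA differed by less than the spread between replicates: the 52 genes added up to 6368 ± 155 CPM in knockouts and 6413 ± 224 CPM in wild type (SD, n = 4 each). Cst3 and Wfdc2, at 35.0% and 28.0% of the summed level, dominate this sum. Below them, 7 genes had a mean between 100 and 1000 CPM, 12 between 10 and 100 CPM, and 19 between 1 and 10 CPM. The 21 serpins alone summed to 901 ± 27.3 CPM in knockouts and 821 ± 16.6 CPM in wild type, although Serping1 and Serpine2 were lower on average.

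The WFDC family, small secreted proteins with a whey acidic protein fold, had 2 of 10 tested members higher and 3 lower, against 16.7% and 14.2% of all genes. Wfdc2, or HE4, is made by airway epithelium and was the second most abundant antiprotease. It had 1745, 1540, 1747 and 1543 CPM in knockouts, against 1941, 1922, 2050 and 1847 CPM in wild type (-0.24 ± 0.07, limma adjusted p = 0.018). The groups did not overlap, but without wild type 3 the call was lost (limma adjusted p = 0.0538, in a range of 0.000863 to 0.0538 over the alternatives). Slpi, the secretory leukocyte protease inhibitor that blocks neutrophil elastase and cathepsin G on airway surfaces, did not follow it. It had 116, 105, 129 and 163 CPM in knockouts, against 101, 112, 126 and 135 CPM in wild type, with overlapping groups and a difference of 0.10 ± 0.13 (limma adjusted p = 0.576).

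Several epithelial marker genes were lower beside Wfdc2. The 10 club and goblet cell genes summed to 82056 to 111625 CPM in knockouts, against 85043 to 106046 CPM in wild type, and 5 were called lower and none higher. The 9 ciliated cell genes summed to 669 to 790 CPM in knockouts, against 854 to 928 CPM in wild type, with 5 lower and 1 higher, and the 10 type 2 cell genes to 51343 to 63136 CPM in knockouts, against 84534 to 101196 CPM in wild type, with 5 lower and 1 higher. Over all genes, 16.7% were called higher and 14.2% lower. Scgb1a1, not called, made up most of the club and goblet sum, at 89790 CPM in knockouts and 83216 CPM in wild type on average. Sftpc made up most of the type 2 sum and of its difference, at 40739 CPM in knockouts and 75406 CPM in wild type. Neither sum therefore describes its list as a whole. The part of these cell types in the Wfdc2 result was not tested.

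Wfdc1, or ps20, a secreted protein of stromal cells, was higher, at 56.5, 55.4, 58.1 and 54.02 CPM in knockouts and 42.4, 50.2, 46.1 and 50.5 CPM in wild type (0.25 ± 0.07, limma adjusted p = 0.0224). The call was lost without knockout 3, wild type 1 or wild type 3 (limma adjusted p = 0.0638, 0.0651 and 0.057, in a range of 0.0222 to 0.0651 over the alternatives). Wfdc10 had 9.14, 12.3, 9.52 and 11.6 CPM in knockouts, against 7.60, 5.81, 6.47 and 5.96 CPM in wild type (0.68 ± 0.12, limma adjusted p = 0.00249). Wfdc12 had 0.93, 0.88, 0.83 and 1.0 CPM in knockouts, against 1.73, 2.15, 2.08 and 2.12 CPM in wild type (-0.84 ± 0.14, limma adjusted p = 0.00169). These 2 genes sit in the same stretch of chromosome 2 and differed in opposite directions without overlap. Wfdc12 averaged under 1 CPM in knockouts and entered the test through its wild type values.

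Wfdc3 is listed under 2 identifiers. The entry ENSMUSG00000076434 had 3.71, 4.80, 4.97 and 4.23 CPM in knockouts, against 6.46, 5.49, 6.93 and 7.82 CPM in wild type (-0.54 ± 0.13, limma adjusted p = 0.0105). The entry ENSMUSG00000039951 had 2.52, 3.38, 3.80 and 3.07 CPM in knockouts, against 3.23, 3.28, 4.62 and 4.04 CPM in wild type, and was not called (limma adjusted p = 0.306). Only the first is in GENCODE M21. The same stretch of chromosome 2 also holds Slpi, Wfdc2, Wfdc6a, Wfdc8, Wfdc16 and Wfdc13, so the cluster did not move as a block: Wfdc10 was higher, Wfdc12, Wfdc2 and Wfdc3 (ENSMUSG00000076434) were lower, Slpi, Wfdc6a, Wfdc8 and Wfdc16 were not called, and Wfdc13 was not tested. Wfdc6a, Wfdc8 and Wfdc16 ranged from 0.54 to 4.72 CPM over the libraries.

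No SPINK gene was called. Spink4, the most abundant of the 4, had 9.80, 8.86, 7.38 and 9.84 CPM in knockouts, against 9.69, 9.41, 8.89 and 8.14 CPM in wild type. Spink5, which inhibits kallikreins of the skin barrier, had 5.90, 4.06, 4.49 and 3.84 CPM in knockouts, against 5.32, 5.86, 6.52 and 5.32 CPM in wild type (-0.31 ± 0.14, limma adjusted p = 0.105). Knockout 1 was the only knockout within the wild type range, and without it the difference was -0.43 and called (limma adjusted p = 0.0201, in a range of 0.0201 to 0.235 over the alternatives). Spink10 averaged 1.31 ± 0.327 CPM in knockouts and 0.90 ± 0.217 CPM in wild type, and Spink2 6.16 ± 0.634 CPM in knockouts and 6.24 ± 1.47 CPM in wild type (SD, n = 4 each).

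The inter-alpha-trypsin inhibitor heavy chains, several but not all of which are coupled to hyaluronan in the extracellular matrix, held both a large fall and a large rise. Itih4, in plasma an acute-phase glycoprotein, had 24.3, 20.96, 27.6 and 22.98 CPM in knockouts, against 70.99, 54.4, 56.7 and 52.95 CPM in wild type. The difference of -1.27 ± 0.11 was the largest fall in the set (limma adjusted p = 1.65e-05), and the knockout mean was 0.408 of the wild type mean. The highest knockout, 27.6 CPM, lay far below the lowest wild type library, 52.95 CPM. Itih3 and Itih1, its neighbours on chromosome 14, were too scarce for the test. Itih1 had 0.66, 0.20, 0.69 and 0.54 CPM in knockouts, against 0.96, 1.40, 1.33 and 0.90 CPM in wild type, and Itih3 0.20, 0.14, 0.07 and 0.31 CPM in knockouts, against 0.42, 0.59, 0.69 and 0.45 CPM in wild type. In both, every knockout lay below every wild type library, as in Itih4, but on few reads. Itih1 had 30 reads over the knockouts and 79 over the wild type libraries, and Itih3 had 10 and 37.

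Itih5, a heavy chain made in tissues outside the liver, went the other way. It had 7.55, 8.86, 8.83 and 8.91 CPM in knockouts, against 5.08, 5.11, 4.04 and 4.23 CPM in wild type (0.82 ± 0.11, limma adjusted p = 0.000415), and no libraries overlapped. Itih2 had 1.06, 2.03, 2.28 and 2.07 CPM in knockouts, against 2.09, 2.04, 1.79 and 1.67 CPM in wild type, and was not called. Itih5 and Itih2 share chromosome 2, Itih4, Itih3 and Itih1 chromosome 14. Alb, the only gene of the liver list found in the table, was lower in knockouts along with Itih4, Itih3 and Itih1. Alb was at 1.15 CPM or less in every library, and Itih4 reached 70.99 CPM. The fibrinogen genes Fga and Fgg of the coagulation list, too scarce for the test, were lower as well. They averaged 0.035 and 0.0175 CPM in knockouts, against 0.302 and 0.417 CPM in wild type. The part of liver RNA in these values was not tested.

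**Figure D4:**
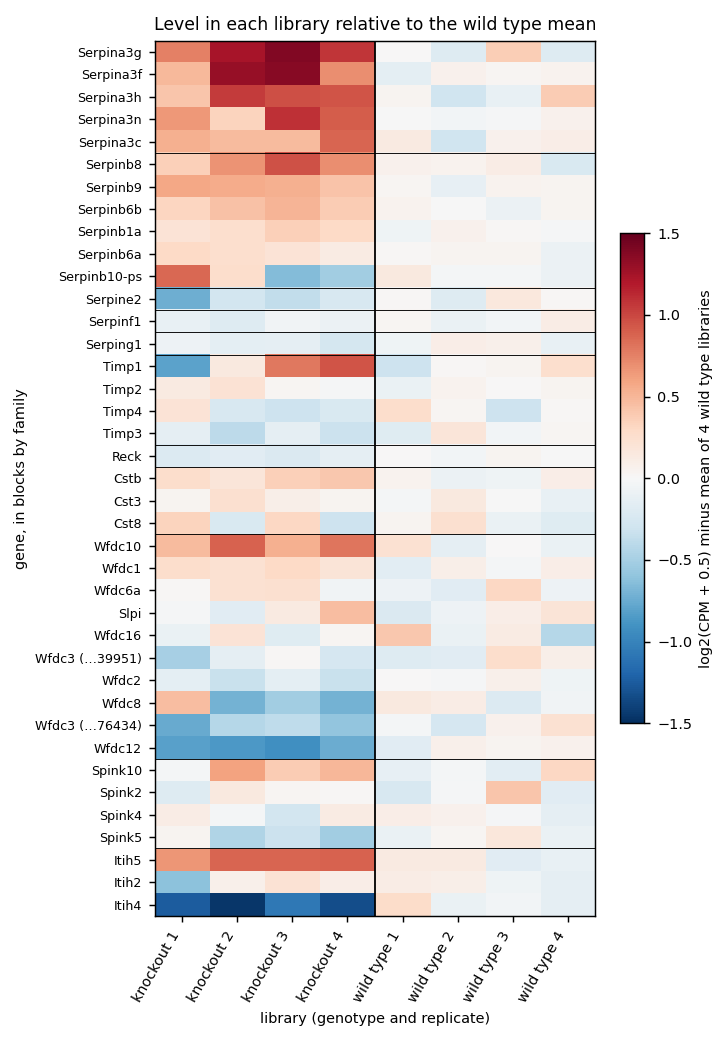
Deviation of each library from the mean of the 4 wild type libraries on log2(CPM + 0.5), for 39 of the 40 tested genes in blocks by family, with knockout libraries left of the wild type ones; red is higher and blue lower. The clade A and B blocks are red in all 4 knockouts apart from Serpinb10-ps, Itih4 is blue in all 4, and Timp1 is blue in knockout 1 and red in knockouts 3 and 4.

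Of the 12 genes under the limit for the test, 4 more were clade A, D and I serpins besides Serpina3i and Serpina3m. Serpina1a, alpha-1 antitrypsin, the chief plasma inhibitor of neutrophil elastase, had 5, 2, 4 and 2 reads in knockouts and 0 in each wild type library. A count of 0 allows up to 3 reads, or 0.161 to 0.192 CPM in these libraries, and counting error only is covered. Serpina1a has near-identical copies that were not listed, so the gene of origin of these reads is uncertain. Serpina10, the protein Z-dependent inhibitor of factor Xa, had 7 reads over the knockouts and 25 over the wild type libraries, and Serpind1, heparin cofactor 2, had 14 reads in knockouts and 30 in wild type. Serpind1 lies within Pi4ka on the opposite strand, which averaged 9.64 CPM in knockouts and 14.1 CPM in wild type. Serpini1, neuroserpin, had 24 reads in knockouts and 32 in wild type.

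Wfdc13 had 13 reads over the knockouts and 46 over the wild type libraries, and its groups did not overlap. Cst6 had 57 reads in knockouts and 37 in wild type, Cst7, the cystatin F of leukocytes, 13 in knockouts and 28 in wild type, and A2m, the broad-range protease trap alpha-2-macroglobulin, 24 in knockouts and 29 in wild type. In a fit without a filter on low values, Itih3 (limma adjusted p = 0.015), Wfdc13 (0.0153) and Itih1 (0.0192) were called lower and Serpina1a (0.0192) and Cst6 (0.0385) higher. Over all 15728 genes, that fit called 2385 higher and 2061 lower. The other 7 genes under the limit were not called. Among them Serpina10 was separate between genotypes, with a limma adjusted p of 0.057.

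Spread within a genotype differed from gene to gene. The median coefficient of variation over the 40 genes was 13.4% in knockouts and 10.6% in wild type, and it was larger in knockouts for 22 of the 40. Wfdc8 spread over 70.1% in knockouts, from knockout 1, and 15.2% in wild type, and Serpina3f over 36.0% in knockouts and 10.4% in wild type. Knockout 1 was the highest of its group in Serpinb10-ps, Wfdc8 and Timp4 and the lowest in Timp1, Serpine2 and the clade A genes Serpina3g, Serpina3f and Serpina3h. Leaving it out kept all 10 clade A and B calls.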

How the data were processed

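CAGE libraries of total lung RNA labelled as from triply n/i/eNOSs-/- mice (4) and wild type mice (4) were pooled for single-end sequencing (75 nt), from RNA of integrity number above 7.0, per the labels' protocols. Tools listed in the submitters' processing notes, with no role or order, are HISAT2 2.0.5, BWA 0.7.12-r1039 and edgeR, and the build is mm9. The sources used here do not say how tags were assigned to genes or whether strand was used. The authors deposited counts per 1000000 reads (CPM) with 2 decimals. From the values, 100% were whole multiples, within 0.1 reads, of the CPM of 1 read, so whole reads and library totals could be recovered.

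Genes with a mean of at least 1 CPM were tested in R 4.3.3 by limma 3.58.1, applied to log2(CPM + 0.5), with genotype as the only term and a variance trend. The test was two-sided with Benjamini-Hochberg adjustment over all 14036 genes, and genes were called at an adjusted p under 0.05. The script was tested on simulated data. On the recovered reads, the quasi-likelihood test of edgeR 4.0.16 called 2241 genes higher and 2304 lower, and DESeq2 1.42.0 called 2184 higher and 2255 lower. The other alternatives were pseudocounts, filters, scalings, no variance trend, a replicate block and leaving out each library.

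Members and gene lists were chosen with earlier results of these data known. Values of each library are given for called genes and for the highest gene of each family. Serpinb10-ps, Timp1, Timp3, Slpi, Spink5, Itih1, Itih2, Itih3 and the second Wfdc3 entry were added after their values were seen. The result of 1 member is not reported here. Of the lists, at most 4 called genes with the smallest adjusted p and the known targets of members are named. The labels do not say how the samples of a genotype are related, so p-values measure the spread between these samples. The chi-square per gene between libraries of 1 genotype was 11.28 to 19.1, so no 2 agreed within counting noise. Because the reads were placed on mm9, GENCODE M21 and RefSeq on GRCm38.p6 were used only for names, neighbours, overlaps, copies (blastn 2.17.0) and promoter sequences.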

Additional observations from a re-analysis of the deposited data

Results flagged for a closer look

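In 6 of the 80 groups of 4 libraries looked at (40 genes in each genotype), the highest or lowest library stood apart from the other 3 by a gap above Dixon's 95% critical value, which chance gives in about 1 in 20 groups. Knockout 1 was the library set apart in 3 of them. Itih5 was lowest in knockout 1, with 7.55 CPM against 8.83 to 8.91 CPM in the other knockouts. Wfdc8 was highest in knockout 1, with 1.85 CPM against 0.54 to 0.69 CPM, and so was Timp4, with 4.24 CPM against 2.83 to 3.0 CPM. Serpina3c was highest in knockout 4, with 8.38 CPM against 6.21 to 6.49 CPM in the other knockouts. In wild type, Serpinb9 was lowest in replicate 2, with 53.57 CPM against 59.45 to 60.39 CPM, and Wfdc12 was lowest in replicate 1, with 1.73 CPM against 2.08 to 2.15 CPM. The calls of Itih5, Serpina3c, Serpinb9 and Wfdc12 were kept without those libraries.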

How the results depend on the processing

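Of the 19 called genes, 16 kept their call in all 19 alternatives, among them all 10 of serpin clades A and B. Serpine2 and Wfdc2 lost it without wild type 3, and Wfdc1 without knockout 3, wild type 1 or wild type 3. The count of genes called higher was 14, with 16 under no filter on low values and 13 to 15 when a library was left out. The count of genes called lower was 5, with 8 under no filter, TMM factors, median-ratio size factors and edgeR on recovered reads, 7 under quantile normalization and DESeq2, and 3 (without wild type 3) to 7 (without knockout 1) when a library was left out. The genes gained were Timp3, Reck and Serping1 under both scalings and edgeR, Timp3 and Serping1 under quantile normalization and DESeq2, and Itih1, Itih3 and Wfdc13, which enter the test, under no filter. TMM factors moved the median log2 difference of all genes by -0.019, median-ratio size factors by -0.018 and quantile normalization by 0.003. The replicate block left 14 genes called higher and 5 lower and changed no call. Numbers did not pair the samples (correlations of deviations of 0.02, 0.04, 0.03 and 0.07), so the block is not used elsewhere.

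Genes with a difference near 0 changed sign without being called, and the cause was not tested. Under quantile normalization Cst3 was at -0.0634, Spink4 at 0.0224, Wfdc16 at 0.0479, Serpinb10-ps at 0.0452 and Spink2 at 0.0403. Serpinb10-ps was at 0.0033 with a pseudocount of 1 and at 0.12 with edgeR and with DESeq2, and Spink2 at 0.0007 with a pseudocount of 0.1. With a library left out, differences ran from -0.0756 to 0.14 for Cst8, -0.14 to 0.13 for Itih2, -0.0785 to 0.14 for Spink2, -0.15 to 0.12 for Wfdc16, -0.0615 to 0.0704 for Spink4, -0.3 to 0.2 for Serpinb10-ps and -0.0177 to 0.19 for Slpi. In the knockout libraries, which are the shallower ones, 3 reads correspond to 0.199 to 0.231 CPM, against 0.161 to 0.192 CPM in wild type, and this floor covers counting error only.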

Other observations

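A list of other protease inhibitors, which the symbol rule does not take in, was called at about the rate of all genes. Of 19 tested, 3 (15.8%) were higher and 3 (15.8%) lower in knockouts. The list is broad and also holds Birc and Naip genes, some of them among those called, and Anxa5, which was not called. The shares are those of the list as drawn up. Tfpi2, a Kunitz-type inhibitor of plasmin in the extracellular matrix, had 2.85, 4.46, 4.55 and 4.23 CPM in knockouts, against 1.5, 1.88, 2.54 and 2.31 CPM in wild type (log2 difference 0.82, limma adjusted p = 0.0061). Its relative Tfpi, the inhibitor of the tissue factor pathway, averaged 27.5 ± 2.39 CPM in knockouts and 24.7 ± 2.45 CPM in wild type (SD, n = 4 each) and was not called (limma adjusted p = 0.227).

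Factor VII and its receptor, which start clotting, differed in opposite directions. F7, factor VII, averaged 11.1 ± 1.59 CPM in knockouts, against 7.4 ± 1.04 CPM in wild type (SD, n = 4 each, log2 difference 0.56, limma adjusted p = 0.00733). F3, tissue factor, had 44.0, 26.7, 30.6 and 25.7 CPM in knockouts, against 41.1, 47.0, 49.8 and 38.2 CPM in wild type (log2 difference -0.49, limma adjusted p = 0.0324), with knockout 1 inside the wild type range. Of 9 coagulation genes tested, 2 (22.2%) were higher and 1 (11.1%) lower. Of 19 membrane and epithelial serine proteases tested, 3 (15.8%) were higher and 5 (26.3%) lower, where 16.7% and 14.2% of all genes were. Htra3, a secreted serine protease, averaged 23.5 ± 2.03 CPM in knockouts and 14.0 ± 1.4 CPM in wild type, and Tmprss2, a protease on the surface of airway and alveolar cells, 46.7 ± 3.38 CPM in knockouts and 37.1 ± 1.07 CPM in wild type (SD, n = 4 each, limma adjusted p = 0.00027 and 0.00498). Furin, the target of human SERPINB8, was lower, at 42.1 ± 3.45 CPM in knockouts and 50.9 ± 2.83 CPM in wild type (SD, n = 4 each, limma adjusted p = 0.0181).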
